A study of Mus musculus with 24 samples.

Results

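The genes described here encode the enzymes, transporters and regulators of glycolysis and of glycogen metabolism: 36 named genes, chosen by symbol and all present among the 47643 genes of the deposited count table. Of the 36, 34 passed the expression filter, and 2, Pfkfb2 and Pgam1, did not. They were measured in plantaris, a fast hindlimb muscle. All samples were from wild-type C57BL/6 mice: 11 samples came from the normal air group, and 13 from the group given 16 weeks of tobacco smoke. Libraries were made with a Lexogen kit that reads transcripts near their 3′ end, and values are given as CPM, counts scaled to a common library size. Because this kit samples the 3′ end, CPM does not grow with transcript length, although genes differ in how well their 3′ ends are captured. Age, sex and whether each sample came from a separate animal were not given in the sources used here, so p-values measure the spread between these samples.

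Glycolysis splits glucose into pyruvate in the cytosol and yields ATP without oxygen. Fast muscle fibres rely on it during short, intense contraction, and they feed it from glycogen, a branched glucose store that is built by glycogen synthase and opened by glycogen phosphorylase. Many steps are run by muscle isoforms, such as Pfkm, Eno3, Pgam2 and Pygm, beside relatives that are more common in other tissues. Pyruvate is either reduced to lactate by lactate dehydrogenase or oxidised in mitochondria.

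Total counts ranged from 2515697 to 4528845 per library, so that 3 counts corresponded to 0.665 to 1.15 CPM. The 36 genes together took 2.51 ± 0.107% (SD, n = 11) of counts in air and 2.51 ± 0.114% (SD, n = 13) under smoke. All 6 muscle markers and all 12 fast fibre markers were detected in the tested set, and none of 3 liver genes passed the filter. Of the muscle markers, 1 was called lower: myoglobin (Mb), the oxygen store of oxidative fibres, which differed by −0.36 on the log2 scale (SE 0.061; adjusted p = 0.00107 in edgeR), with all 13 smoke samples below the air mean. Of 5 blood markers, 3 were called lower under smoke, and of 5 Schwann cell markers, 3 were called higher. Air replicate 11 held the highest air value for 12 of the 34 tested genes.

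Few of these genes differed between smoke and air, and no estimate reached 1.5-fold. Fructose-bisphosphatase 2 (Fbp2) rose 1.29-fold and the heart-type lactate dehydrogenase subunit (Ldhb) fell to 0.797 of its air level. These were the 2 called among 34 tested (5.88%) at an adjusted p under 0.05, against 1.92% of all 10159 genes tested by the same edgeR fit (195 genes). In one direction each, 1 gene was higher, against 0.728% of all genes, and 1 was lower, against 1.19%. A share built on 2 calls is imprecise, and nothing particular to these genes is read from it.

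Over the 34 genes the median log2 fold change was 0.0051, against 0.0066 over all genes tested, with 18 above zero and 16 below. The median size of the change was 0.079 on the log2 scale here and 0.11 over all genes. For 24 of the 34 genes the 95% interval of the change lay within 1.25-fold in either direction, and for 31 it lay within 1.5-fold. The 3 genes with wider intervals were Pfkp, Pgk1 and Stbd1. At an unadjusted p under 0.05 there were 5 genes (Fbp2, Ldhb, Gys1, Tpi1 and Pgam2), against 15.5% of all genes.

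**Figure D1:**
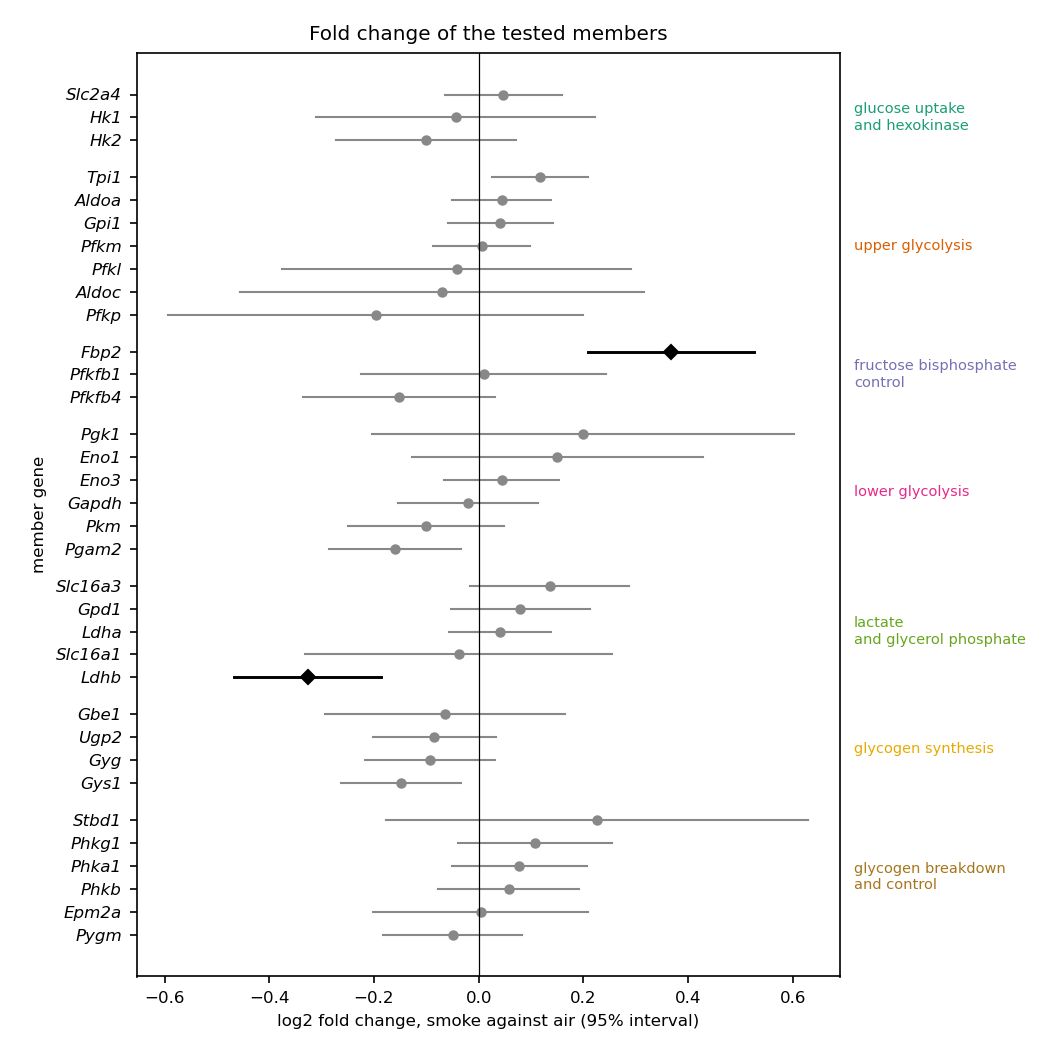
Log2 fold change (smoke against air, x axis) with its 95% interval for the 34 tested genes, grouped by role; black diamonds mark an adjusted p under 0.05. Fbp2 at 0.37 and Ldhb at −0.33 stand outside the other genes, whose estimates lie between −0.20 and 0.23.

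Glucose enters fibres through Slc2a4, the insulin- and contraction-responsive transporter GLUT4, and is trapped by hexokinase. Slc2a4 was measured at 649 to 932 CPM in air (median 753) and at 698 to 940.0 CPM under smoke (median 796). The groups overlapped almost fully, and the log2 fold change was 0.047 (SE 0.055), with an adjusted p = 0.746 from edgeR's quasi-likelihood test with Benjamini-Hochberg adjustment. The 95% interval of the change ran from −4.40% to 11.7%. Hk2, the main hexokinase of insulin-sensitive muscle, stood at 509 ± 106 CPM (SD, n = 11) in air and 475 ± 55.9 CPM (SD, n = 13) under smoke, with a log2 fold change of −0.10 (SE 0.085). Without air replicate 5 that value for Hk2 was −0.043, and without air replicate 4 it was −0.060. Hk1, the more widely expressed form, was found at 16.9 ± 4.29 CPM (SD, n = 11) in air and 16.4 ± 3.75 CPM (SD, n = 13) under smoke. None of the 3 genes of this step was called by edgeR or DESeq2, and 0 had an unadjusted p under 0.05.

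In upper glycolysis, from glucose 6-phosphate to triose phosphate, 0 of 7 genes were called by edgeR and 1, Tpi1, had an unadjusted p under 0.05. DESeq2 called none of them either. The most abundant of them was Aldoa, the muscle aldolase, at 4625 to 6011 CPM in air (median 4981) and 4638 to 5654 CPM under smoke (median 5235). Its groups overlapped, and its log2 fold change was 0.044 (SE 0.047; adjusted p = 0.715 in edgeR). Pfkm, the muscle subunit of the pathway's main control enzyme phosphofructokinase, was among the steadiest genes, at 781 ± 54.7 CPM (SD, n = 11) in air and 784 ± 46.1 CPM (SD, n = 13) under smoke. The interval of its change ran from −5.81% to 7.10%.

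Tpi1, which interconverts the triose phosphates, was measured at 545 to 688 CPM in air (median 619) and 618 to 749 CPM under smoke (median 670). Of 13 smoke samples, 12 lay above the air mean and 3 above the highest air sample. The log2 fold change of 0.12 (SE 0.045) did not pass over all genes (edgeR adjusted p = 0.178). Gpi1, which makes fructose 6-phosphate, had a log2 fold change of 0.042 (SE 0.0495) at 227 ± 20.3 CPM (SD, n = 11) in air. The minor isoforms were rare: Aldoc at 28.9 ± 14.3 CPM, Pfkp at 4.80 ± 1.92 CPM and Pfkl at 4.34 ± 1.16 CPM (SD, n = 11) in air. Their log2 fold changes, −0.070, −0.20 and −0.042, had standard errors of 0.16 to 0.20, and their intervals were correspondingly wide. Pfkl and Pfkp had 8 to 28 counts per library. Aldoc had 55 to 190, with a biological coefficient of variation of 30.7%.

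Fructose 2,6-bisphosphate, made and removed by the PFKFB enzymes, activates phosphofructokinase, while fructose-bisphosphatase runs the opposite reaction. Fbp2, the muscle form of that phosphatase, known for its part in making glycogen from lactate, was the gene that rose. It was measured at 35.3 to 53.6 CPM in air (median 41.8) and at 45.4 to 72.4 CPM under smoke (median 53.8), from 107 to 276 counts per library. All 13 smoke samples lay above the air mean and 7 lay above the highest air sample, while the ranges of the groups overlapped. The log2 fold change was 0.37 (SE 0.078; adjusted p = 0.00863 in edgeR), and its 95% interval corresponded to a level 15.6% to 44.0% higher.

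Fbp2 stayed called when any 1 sample was left out, with log2 fold changes of 0.33 to 0.40 (edgeR adjusted p = 0.00368 to 0.0191). With a circadian clock index as a covariate its log2 fold change was 0.13 (edgeR adjusted p = 0.555). That index is the mean log2 CPM of clock output and period genes minus that of Arntl, Clock and Nfil3, and it correlated with the group at r 0.73. Of 8 tested genes of its first list 3 were called higher, and of 3 tested genes of its second list 1 was called lower. The summed level of the first list (9 genes) ran from 367 to 528 CPM in air and from 381 to 600 CPM under smoke, and that of the second (4 genes) from 41.2 to 63.3 CPM and from 28.03 to 48.2 CPM. With a blood score as a covariate the value was 0.34 and no longer passed (edgeR adjusted p = 0.0927). All 5 blood markers had negative fold changes, and their summed level ran from 486 to 1444 CPM in air and from 369 to 883 CPM under smoke. The index and the score vary with the group, and their part in the result was not tested.

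The promoters of the 2 called genes are shown because they are the members whose RNA levels differed. Each is 300 bases of RefSeq sequence on GRCm38.p6, from 250 bases before the start site to 50 after it, written 5′ to 3′ on the gene's strand, with matches to the motifs searched in capitals.
Fbp2, chr13:62858351-62858650, minus strand: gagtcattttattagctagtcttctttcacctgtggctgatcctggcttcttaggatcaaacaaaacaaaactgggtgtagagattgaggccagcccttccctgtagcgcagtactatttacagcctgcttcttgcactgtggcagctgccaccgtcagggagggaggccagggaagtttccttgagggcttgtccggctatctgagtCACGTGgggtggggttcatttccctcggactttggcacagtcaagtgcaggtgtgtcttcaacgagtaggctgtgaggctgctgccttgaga
Ldhb, chr6:142507908-142508207, minus strand: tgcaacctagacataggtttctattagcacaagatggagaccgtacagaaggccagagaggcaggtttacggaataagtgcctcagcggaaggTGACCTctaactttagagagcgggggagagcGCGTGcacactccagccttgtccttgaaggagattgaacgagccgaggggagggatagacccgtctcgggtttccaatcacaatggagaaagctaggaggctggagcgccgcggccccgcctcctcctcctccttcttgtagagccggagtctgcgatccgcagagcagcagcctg

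Motifs were searched on both strands: the E-box CACGTG, bound by clock factors among others, the hypoxia response core ACGTG, the AhR response core GCGTG, the D-box TTANGTAA and the ROR half-site AGGTCA. The Fbp2 promoter held an E-box with its first base at −42 from the start site, and its hypoxia core matches lie inside that E-box. The Ldhb promoter held an AhR core at −126 and, on the other strand, a ROR half-site at −157. Among all 32851 promoters of that length, 7.15% held the E-box, 19.6% the hypoxia core, 32.4% the AhR core, 2.32% the D-box and 16.3% the ROR half-site. Among the 9976 promoters of tested genes the shares were 10.004%, 25.4%, 50.8%, 1.49% and 12.1% in the same order. Promoters were listed for 34 of the 36 genes, all but Gpd1 and Slc2a4 (51 promoters), of which 6 held the E-box, 21 the hypoxia core, 28 the AhR core, 1 the D-box and 9 the ROR half-site. These matches describe the letters only.

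Of the PFKFB genes in this set, none was called. Pfkfb3, which is outside the set and more abundant, was called higher under smoke and is described below. Pfkfb4 was the most abundant of the set's genes in this role. It was measured at 47.7 to 86.6 CPM in air (median 60.8) and at 45.2 to 76.8 CPM under smoke (median 57.2). Below the air mean lay 10 of 13 smoke samples, and the log2 fold change of −0.15 (SE 0.090) did not pass (edgeR adjusted p = 0.446). Pfkfb1, the liver and muscle form, stood at 15.8 ± 2.91 CPM (SD, n = 11) in air and 15.97 ± 3.43 CPM (SD, n = 13) under smoke. Pfkfb2, the heart form, was under the filter with 0 to 14 counts per library.

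Lower glycolysis, from glyceraldehyde 3-phosphate to pyruvate, held the most abundant transcript of the whole set, Eno3, the muscle enolase. Eno3 was measured at 7063 to 9929 CPM in air (median 7450) and 6796 to 9057 CPM under smoke (median 8111). The groups overlapped, and the log2 fold change of 0.044 (SE 0.054; adjusted p = 0.763 in edgeR) had an interval of −4.51% to 11.3%. Eno3, Aldoa and Pgam2 together made up 58.1% to 62.2% of the counts of the 36 genes in each library.

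Pgam2, the muscle phosphoglycerate mutase, was measured at 2023 to 3355 CPM in air (median 2271) and 1917 to 2311 CPM under smoke (median 2170). All 13 smoke samples lay below the air mean, and 3 lay below the lowest air sample. The log2 fold change of −0.16 (SE 0.062) did not pass (edgeR adjusted p = 0.185). It was −0.10 (adjusted p = 0.297) without air replicate 11, the highest sample. Pkm, the pyruvate kinase, had a log2 fold change of −0.10 (SE 0.073), and of −0.016 without that sample, in which it stood at 2534 CPM against an air median of 1523 CPM. In lower glycolysis 0 of 6 tested genes were called by edgeR or DESeq2, and 1, Pgam2, had an unadjusted p under 0.05.

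Gapdh, often used as a reference gene, was measured at 379 ± 47.7 CPM (SD, n = 11) in air and 374 ± 39.3 CPM (SD, n = 13) under smoke, with an interval of −10.2% to 8.16%. Eno1, the widely expressed enolase, had 35.5 ± 9.90 CPM (SD, n = 11) in air and 39.4 ± 10.7 CPM (SD, n = 13) under smoke. Pgk1 was low and uneven, at 5.98 to 40.1 CPM in air and 11.7 to 35.4 CPM under smoke, and its biological coefficient of variation of 32.8% was the highest of the set. Pgam1, the non-muscle mutase, had 8 counts in all libraries together. Genes with near-identical processed copies, Gapdh, Pgk1, Pgam1, Eno1, Aldoa and Ldha among them, can lose reads that map to several places, so their levels are uncertain. Rows named as copies of Gapdh held 1.26% of the counts of Gapdh and those copies, and copies of the other genes held 0 to 40 counts over all libraries. Copies under unrelated names were not searched, and reads dropped from both gene and copy leave no counts. These values therefore cannot measure the loss. Of the 36 genes, 18 overlap another annotated gene, 7 of them on the same strand, and whether counting used strand was not stated. Among those named in full these were Aldoa, Tpi1, Gys1 and Ugp2, whose counts are therefore uncertain.

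**Figure D2:**
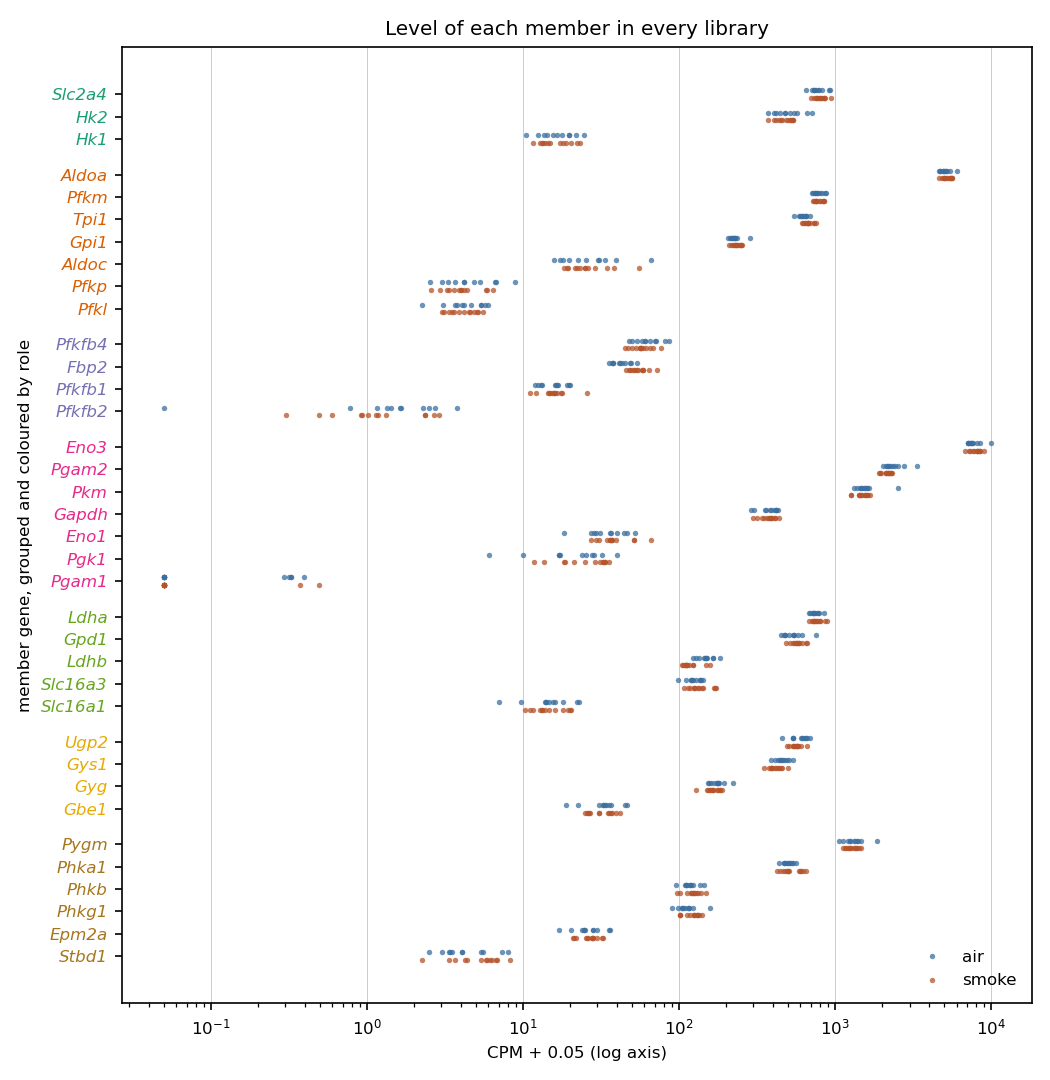
CPM (log axis, with 0.05 added) of the 36 genes in each air library (blue) and smoke library (orange), grouped and coloured by role. Eno3, Aldoa, Pgam2, Pkm and Pygm were the 5 highest, and Pfkfb2 and Pgam1 lay under the expression filter.

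Ldhb encodes the subunit of lactate dehydrogenase that is common in heart and oxidative fibres, and Ldha the one common in fast fibres. Ldhb fell: it was measured at 124 to 183 CPM in air (median 148) and at 105 to 158 CPM under smoke (median 112), from 332 to 657 counts per library. Of 13 smoke samples, 12 lay below the air mean and 11 below the lowest air sample, while smoke replicates 5 and 13 were highest, at 158 and 148 CPM. The log2 fold change was −0.33 (SE 0.069; adjusted p = 0.00863 in edgeR), and its interval was −27.7% to −12.1%. No annotated gene overlaps Ldhb or Fbp2.

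When each sample was left out in turn, the log2 fold change of Ldhb lay between −0.37 and −0.29 and passed in every fit (edgeR adjusted p = 0.00192 to 0.0216). With the blood score as a covariate it was −0.35 (edgeR adjusted p = 0.0391), and with a Schwann cell score −0.35 (edgeR adjusted p = 0.0456). With the clock index it was −0.29 and no longer passed (edgeR adjusted p = 0.155). The slow fibre score, the mean log2 CPM of 8 tested slow fibre genes, left it at −0.32 (edgeR adjusted p = 0.0115). Of these 8 slow fibre genes, 4 had a positive and 4 a negative fold change and 0 were called by edgeR or DESeq2. The 3 with an unadjusted p under 0.05 all had lower values under smoke, with log2 fold changes of −0.46 (SE 0.14) for the myosin light chain Myl2, −0.29 (SE 0.10) for Myl3 and −0.35 (SE 0.12) for the calcium pump Atp2a2 (edgeR adjusted p = 0.0784, 0.15 and 0.145). The 4 positive genes had larger standard errors, of 0.22 to 0.37. The score weights all 8 equally and correlated only weakly with the group (r −0.11), so that as a covariate it could move the Ldhb value little. Myoglobin was also called lower, as given above, and the part of oxidative fibre content in the Ldhb result was not tested. The summed level of the slow fibre list ran from 394 to 772 CPM in air and from 321 to 691 CPM under smoke. In a bulk sample, fewer cells of a type and less RNA per cell cannot be told apart.

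Ldha was measured at 683 to 854 CPM in air (median 730.4) and 681 to 894 CPM under smoke (median 756). The groups overlapped, and the log2 fold change of 0.041 (SE 0.048; adjusted p = 0.746 in edgeR) had an interval of −3.85% to 10.1%. The share of Ldhb in the summed CPM of Ldha and Ldhb was 13.1% to 20.9% in air (median 16.6%) and 10.9% to 16.9% under smoke (median 13.04%). The log2 ratio of Ldhb to Ldha was lower under smoke by −0.37 ± 0.089 (SE), in 11 of 13 smoke samples (two-sided permutation p = 0.00054, Benjamini-Hochberg adjusted p = 0.00432 over 8 ratios).

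**Figure D3:**
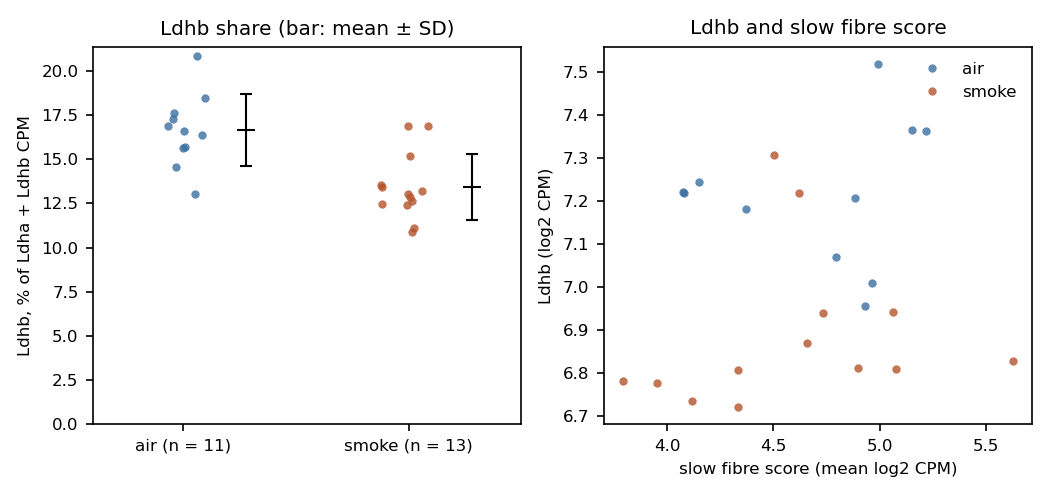
Left, Ldhb as a percentage of Ldha plus Ldhb CPM per library, with mean and SD; right, Ldhb (log2 CPM) against the slow fibre score (mean log2 CPM of 8 genes) per library. The smoke median share of 13.04% lies below the air median of 16.6%, and 11 of 13 smoke libraries lie below every air library in Ldhb level, at low and at high slow fibre scores.

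Lactate leaves fibres mainly through Slc16a3 (MCT4), typical of fast fibres, and enters through Slc16a1 (MCT1). Slc16a3 was measured at 98.3 to 142 CPM in air (median 123) and 108 to 172 CPM under smoke (median 132). Above the air mean lay 9 of 13 smoke samples, with 3 above the highest air sample, but the log2 fold change of 0.14 (SE 0.075) did not pass (edgeR adjusted p = 0.393). Slc16a1 stood at 15.2 ± 4.69 CPM (SD, n = 11) in air and 14.9 ± 3.48 CPM (SD, n = 13) under smoke. Gpd1, which makes glycerol 3-phosphate and returns NAD to glycolysis, had a log2 fold change of 0.080 (SE 0.066) at 543 ± 85.5 CPM (SD, n = 11) in air.

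**Figure D4:**
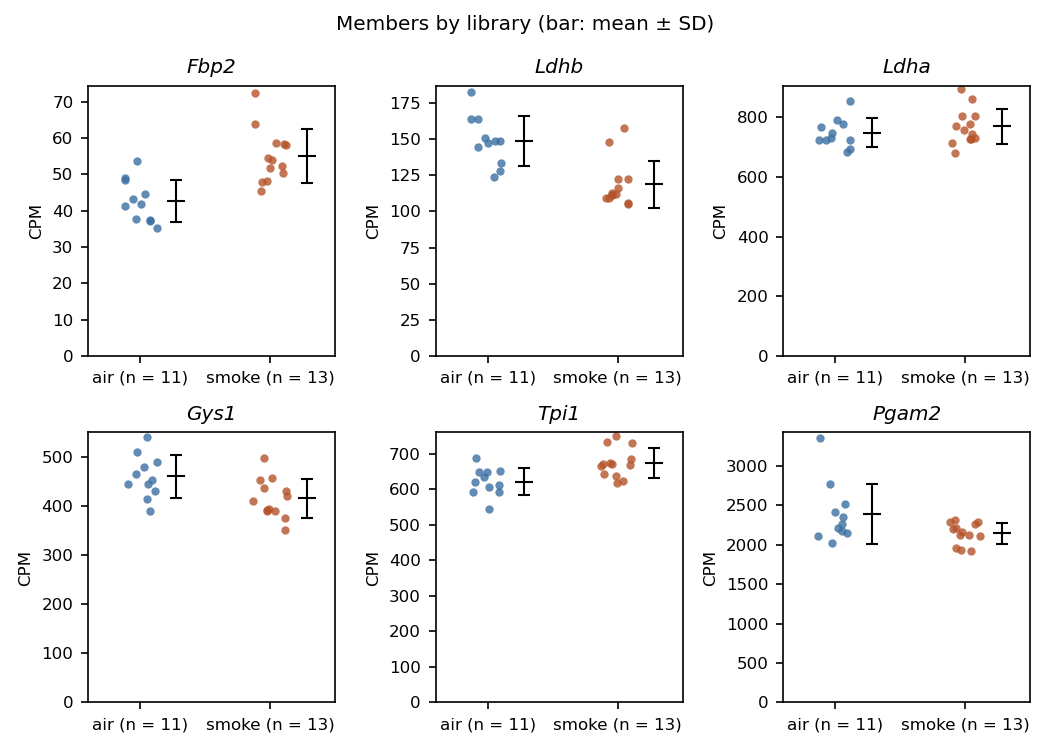
CPM per library (points) with mean and SD for Fbp2, Ldhb, Ldha, Gys1, Tpi1 and Pgam2 in 11 air and 13 smoke samples; each y axis starts at zero. Fbp2 and Ldhb separate most, with 7 smoke samples above and 11 below all air samples respectively, and the groups overlap for all 6 genes.

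Glycogen is started by glycogenin (Gyg), extended by glycogen synthase (Gys1) from UDP-glucose that Ugp2 makes, and branched by Gbe1. All 4 genes had negative fold changes and none was called, with 1 at an unadjusted p under 0.05 and a median log2 fold change of −0.088. The shared sign did not hold in every setting: Gbe1 was at 0.16 and Ugp2 at 0.022 with the clock index, and Gbe1 at 0.12 with the Schwann cell score. DESeq2 called none of the 4 as well. Ugp2, the most abundant, was measured at 460 to 687 CPM in air (median 617) and 491 to 663 CPM under smoke (median 561), and its log2 fold change was −0.085 (SE 0.058; adjusted p = 0.521 in edgeR). Below the air mean lay 11 of 13 smoke samples, and the smoke range lay within the air range.

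Gys1, the muscle glycogen synthase, had the smallest p-value of the genes that were not called. It was measured at 391 to 540 CPM in air (median 454) and 351 to 499 CPM under smoke (median 410). Below the air mean lay 12 of 13 smoke samples, and 4 lay below the lowest air sample. The log2 fold change was −0.15 (SE 0.056, edgeR adjusted p = 0.173), with an interval of −16.6% to −2.28%. Gyg had 176 ± 18.8 CPM (SD, n = 11) in air and 165 ± 16.6 CPM (SD, n = 13) under smoke, and Gbe1 33.5 ± 8.13 CPM and 32.1 ± 5.82 CPM.

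Glycogen is opened by muscle phosphorylase (Pygm), which phosphorylase kinase (Phka1, Phkb and Phkg1) switches on. Of the 6 genes of breakdown and its control, 5 had positive fold changes, and 0 were called or had an unadjusted p under 0.05 in edgeR or DESeq2. Of these positive values, Phkg1 turned to −0.057 with the clock index, Phka1 to −0.014 and Epm2a to −0.043 with the blood score, and Epm2a also changed sign under other filters, the slow fibre score and with samples left out. Pygm was measured at 1054 to 1861 CPM in air (median 1315) and 1128 to 1468 CPM under smoke (median 1273). The highest value was again air replicate 11, and the log2 fold change was −0.050 (SE 0.066, edgeR adjusted p = 0.781). Among the kinase subunits, the log2 fold changes were 0.078 (SE 0.064) for Phka1, 0.057 (SE 0.066) for Phkb and 0.11 (SE 0.072) for Phkg1. Phka1 stood above the highest air sample in 5 of 13 smoke samples, while its medians were 500.3 CPM in air and 499.7 CPM under smoke. The laforin gene Epm2a, a glycogen phosphatase, differed by 0.0038 (SE 0.10), and Stbd1, which tethers glycogen to membranes, by 0.23 (SE 0.20) at only 6 to 33 counts per library.

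Ratios within a sample depend little on library scaling. Besides Ldhb to Ldha, 7 ratios of isoforms or paired steps were tested, and none passed (permutation p = 0.202 to 0.768, Benjamini-Hochberg adjusted p = 0.768 for each). The log2 ratio of Gys1 to Pygm averaged −1.52 in air (SD 0.218, n = 11) and −1.63 in the smoke group (SD 0.19, n = 13), a difference of −0.11 ± 0.084 (SE). Eno1 to Eno3 differed by 0.11 ± 0.167 (SE) and Slc16a1 to Slc16a3 by −0.12 ± 0.191 (SE). Hk1 to Hk2 differed by 0.047 ± 0.151 (SE). Pfkl and Pfkp to Pfkm differed by −0.048 ± 0.113 (SE) and −0.16 ± 0.17 (SE), and Aldoc to Aldoa by −0.071 ± 0.24 (SE). The ratios of Pfkfb2 to Pfkfb1 and of Pgam1 to Pgam2 were not computed, because 1 gene of each was under the filter.

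Of 53 further genes of these pathways, 52 were in the table and 34 were tested, and 3 were called (8.82%, against 1.92% of all genes). A share built on 3 calls is imprecise, and the number called was 1 to 3 in the other settings. The list was also chosen with earlier results of these data known, so nothing particular to these genes is read from the share. Pfkfb3, the inducible PFKFB form, rose from 58.1 to 331 CPM in air (median 141) to 143 to 482 CPM under smoke (median 277), which is 0.80 on the log2 scale (SE 0.192; adjusted p = 0.0216 in edgeR). Ppp1r3c, which brings protein phosphatase 1 to glycogen, fell by 0.74 on the log2 scale (SE 0.093, edgeR adjusted p = 1.27e-05), from a median of 968 to 536 CPM. Gpd2, the mitochondrial partner of Gpd1, rose by 0.18 (SE 0.049, edgeR adjusted p = 0.0481), from 155 to 194 CPM in air (median 180) to 181 to 218 CPM under smoke (median 202).

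The Gpd2 call rested on a narrow margin, since it passed in 6 of 24 fits with 1 sample left out, at edgeR adjusted p = 0.0371 to 0.0881. Those were the fits without air replicate 2, 10 or 11 and without smoke replicate 7, 10 or 13. It also passed in 6 of 15 other settings. Pfkfb3 did not pass with the blood score (0.70, edgeR adjusted p = 0.208), the Schwann cell score (0.74, edgeR adjusted p = 0.148), the clock index (0.33, edgeR adjusted p = 0.586) or robust dispersion (edgeR adjusted p = 0.0848). Schwann cell markers were higher under smoke in 5 of 5 genes, and their summed level ran from 118 to 274 CPM in air and from 176 to 852 CPM under smoke. Both Pfkfb3 and Gpd2 overlap other annotated genes, and whether counting used strand was not stated, so their counts are uncertain. Of the other 31 tested genes, 6 had an unadjusted p under 0.05, among them Pgm5, Epm2aip1, Tbc1d1 and Txnip. Values among the uncalled genes were a log2 fold change of −0.024 (SE 0.080) for phosphoglucomutase (Pgm1) and 0.37 (SE 0.13) for the glucose uptake inhibitor Txnip.

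Within each group the genes differed widely in how much they varied. The biological coefficient of variation, the spread between samples beyond counting error, had a median of 11.6% over the 34 genes, against 14.9% over all genes tested. It was lowest for Tpi1 (7.99%), Pfkm (8.12%), Gpi1 (8.30%), Aldoa (8.54%) and Ldha (8.60%). The highest values, 32.8% for Pgk1, 30.7% for Aldoc and 23.8% for Stbd1, belonged to genes under 30 CPM.

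Relations with fibre type and clock scores were examined within each group, 6 in all. Pygm rose with the fast fibre score in air (n = 11), at Pearson's r 0.86 (permutation p = 0.00268, Benjamini-Hochberg adjusted p = 0.0161) and Spearman's rho 0.69 (permutation p = 0.0238, adjusted p = 0.143). Without the 2 samples farthest from the median score r was 0.41, so that the relation rested on those samples. It did not pass without air replicate 1 (r 0.82, permutation adjusted p = 0.078) or air replicate 11 (r 0.64, permutation adjusted p = 0.262). In smoke (n = 13) r was 0.49 (permutation p = 0.0873, adjusted p = 0.262) and rho 0.36 (permutation p = 0.224), with r 0.25 without 2 samples. Ldhb and the slow fibre score gave r 0.13 in air (permutation p = 0.701; rho 0.26, permutation p = 0.434) and 0.16 in smoke (permutation p = 0.597; rho 0.54, permutation p = 0.0582). Hk2 and the clock index gave r 0.087 in air (permutation p = 0.797; rho 0.15, permutation p = 0.672) and 0.18 in smoke (permutation p = 0.556; rho 0.24, permutation p = 0.424). For these last 4 relations the adjusted p of r was 0.797, and r without 2 samples was 0.199, 0.22, 0.36 and 0.43 in that order.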

How the data were processed

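The authors deposited raw read counts per Ensembl gene ID, 1 column per sample. Per the submitters' processing notes, STAR, DESeq2 and the build mm9 were used, with versions and roles not given in the sources used here. Read filters, molecular identifiers and strand use in counting were not given either, so floors cover counting error only. Per the file headers all samples were read on lane 6, with sheet numbers 229 to 241 for smoke and 242 to 252 for air. Sheet position and group therefore cannot be told apart.

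Symbols came from GENCODE M21, which matched 47224 of 47643 IDs (99.1%). It is on another build, so only the promoters carry coordinates. Counts were filtered by filterByExpr (minimum count 10), scaled by TMM and tested with edgeR 4.0.16 (R 4.3.3) quasi-likelihood on all 24 samples, with group as the single term. The Benjamini-Hochberg adjustment covered all genes tested. SE is the size of the log2 fold change over the root of F. Ratios used a pseudocount of 0.5 CPM, scores a prior count of 2, and permutation tests 100000 resamples. The scripts were tested on simulated data. The 133 within-group sample pairs had a chi-square of at least 2.55 per gene, so no library was merged.

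Groups came from sample titles. The genes, lists and tests were chosen with earlier results of these data known. Named in full were called members, the most abundant member of each role and the 5 uncalled members with the smallest p. Called genes of the further pathway list were named with values. Other genes, the motifs and the individual samples were picked with their values in view. The alternatives were DESeq2 1.42.0, voom in limma 3.58.1 (also with sample weights), scaling by RLE or upper quartile, a robust fit, other filters, removal of the 10 most abundant genes, an adjusted p under 0.10, a replicate block, score covariates and each sample left out. Of 12 fast fibre genes 0 were called by either tool (1 at an unadjusted p under 0.05). The Schwann cell score was added after seeing the data. The marker lists for macrophages, endothelium, fibroblasts and adipocytes had 0 genes called by edgeR or DESeq2 (4, 5, 5 and 4 tested, and 0, 2, 2 and 2 at an unadjusted p under 0.05 in edgeR).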

Additional observations from a re-analysis of the deposited data

How the results depend on the processing

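Fbp2 and Ldhb, and no other of the 36 genes, were called in every fit with 1 sample left out and under all alternatives except 2. With the clock index 0 genes of the set were called (4 at an unadjusted p under 0.05), and with the blood score 1, Ldhb. The number of further pathway genes called was 1 with robust dispersion, 1 with the blood score and 1 with the Schwann score. Over all genes, 195 calls became 323 with DESeq2, 413 at an adjusted p under 0.10, 69 with the clock index, 56 with the blood score and 68 with the Schwann score. The cause was not tested.

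Same-numbered samples share only a number, at a mean r of −0.0059 between deviations from the group means over 11 pairs, and 2 of 11 air samples correlated best with their own number. With the replicate block (22 samples) Fbp2 was at 0.34 and Ldhb at −0.36, both called, and 138 genes were called in all. The ratio of Ldhb to Ldha passed in each of its alternatives, the replicate block included. The relation of Pygm to the fast fibre score was the 1 that passed; with the median over the list 0 passed (1 at an unadjusted p), and with samples left out 0 to 1 did.

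Some genes that passed in no fit changed sign. With the clock index these log2 fold changes were −0.049 (Gpi1), −0.052 (Pfkm), −0.031 (Aldoa), 0.053 (Aldoc), −0.11 (Eno3), 0.18 (Slc16a1), −0.037 (Slc16a3), −0.11 (Gpd1), 0.16 (Gbe1), 0.022 (Ugp2) and −0.057 (Phkg1). With the blood score they were −0.0056 (Slc2a4), 0.012 (Pfkp), 0.0044 (Aldoc), −0.0070 (Pfkfb1), −0.014 (Phka1) and −0.043 (Epm2a), and with the Schwann score 0.024 (Pfkl), −0.13 (Eno1), 0.12 (Slc16a1), 0.12 (Gbe1) and 0.0087 (Pygm). Sample weights gave 0.029 (Pfkl). No filter gave −0.0024 (Pfkm) and −0.0051 (Epm2a), the CPM filter −0.0035 (Pfkm), −0.00022 (Pfkfb1) and −0.0059 (Epm2a), the replicate block −0.0022 (Pfkm) and the slow fibre score −0.0071 (Epm2a). With the median over the list r of Hk2 and the clock index was −0.19 in air and −0.027 in smoke.

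With samples left out, sign changes lay within −0.10 to 0.025 (Hk1), −0.0073 to 0.022 (Pfkm), −0.049 to 0.056 (Epm2a), −0.11 to 0.0037 (Pfkl), −0.066 to 0.0495 (Pfkfb1), −0.19 to 0.11 (Aldoc), −0.12 to 0.034 (Slc16a1), −0.080 to 0.0052 (Pygm) and −0.057 to 0.0026 (Gapdh). The log2 ratio Hk1 to Hk2 lay within −0.030 to 0.12 and Aldoc to Aldoa within −0.17 to 0.069. In air, r of Hk2 with the clock index lay within −0.20 to 0.30 and of Ldhb with the slow fibre score within −0.015 to 0.27.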
